A study of Homo sapiens with 9 samples.

Results

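The genes described here are 10 genes of the thioredoxin, peroxiredoxin and superoxide dismutase systems, which reduce peroxides, superoxide and oxidised protein thiols. They are TXN, TXNRD1, TXNRD2, SRXN1, PRDX1, PRDX3, PRDX6, SOD1, SOD2 and CAT, chosen by name out of 61487 genes counted. The choice was made with earlier results of these data known, so shares of all genes given beside them are descriptive. All 10 were found in the count files and all 10 were among the 17806 genes that passed the filter on low counts. The cells were SH-SY5Y, an established human neuroblastoma line grown in MEM/F12 medium with 15% FBS. They were exposed to citrinin (CTN), a mycotoxin made by moulds, at 10 or 20 µM, or to vehicle (0 µM), and every library was taken at 72 h. Each dose has 3 libraries, numbered as replicates 1 to 3, which makes 9 libraries of total RNA. Nothing states that replicates came from separate cultures, and a p-value here therefore measures only the spread between these samples, which may be technical.

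Thioredoxin is a small protein that passes electrons to oxidised proteins, and thioredoxin reductase recharges it with electrons from NADPH. Peroxiredoxins destroy hydrogen peroxide through a cysteine that thioredoxin then reduces, except PRDX6, which draws on glutathione, and sulfiredoxin (SRXN1) rescues peroxiredoxins whose cysteine has been over-oxidised. Superoxide dismutases turn superoxide into hydrogen peroxide, in the cytosol (SOD1) or the mitochondrial matrix (SOD2), and catalase (CAT) breaks hydrogen peroxide down in peroxisomes. TXNRD1, SRXN1, TXN and PRDX1 are textbook targets of the transcription factor NRF2, which binds antioxidant response elements.

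The promoter windows of TXNRD1 and TXN are printed first because these genes showed the largest differences among the members that passed the test. Each window runs from 250 bases before to 50 bases after a RefSeq transcription start on GRCh38.p14, 5′ to 3′ on the gene's strand, and such windows were matched for 7 of the 10 genes. PRDX1, PRDX6 and SOD1 had no matched window and were not searched. TXNRD1 has several starts, and the windows shown are the only windows of the 7 genes that hold the core of the antioxidant response element, searched as TGACNNNGC on both strands. Capitals mark that core in the TXNRD1 windows, and in the TXN window they mark the TATA core, searched as TATAAA on both strands, where forward and reverse matches overlap.
TXNRD1 window 1, chr12:104215529-104215828, plus strand: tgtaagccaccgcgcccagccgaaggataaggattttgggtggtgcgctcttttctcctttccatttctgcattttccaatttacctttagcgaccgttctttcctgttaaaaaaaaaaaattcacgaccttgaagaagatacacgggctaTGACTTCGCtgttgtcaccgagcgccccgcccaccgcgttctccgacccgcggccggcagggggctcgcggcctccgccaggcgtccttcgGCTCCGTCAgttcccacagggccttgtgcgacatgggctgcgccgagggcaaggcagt
TXNRD1 window 2, chr12:104286782-104287081, plus strand: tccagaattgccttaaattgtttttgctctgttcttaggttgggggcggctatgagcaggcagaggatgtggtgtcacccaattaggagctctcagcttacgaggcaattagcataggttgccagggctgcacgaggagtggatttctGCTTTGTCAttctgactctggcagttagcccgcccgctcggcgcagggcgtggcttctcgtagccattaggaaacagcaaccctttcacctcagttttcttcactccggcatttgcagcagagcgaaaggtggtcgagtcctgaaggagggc
TXN, chr9:110256458-110256757, minus strand: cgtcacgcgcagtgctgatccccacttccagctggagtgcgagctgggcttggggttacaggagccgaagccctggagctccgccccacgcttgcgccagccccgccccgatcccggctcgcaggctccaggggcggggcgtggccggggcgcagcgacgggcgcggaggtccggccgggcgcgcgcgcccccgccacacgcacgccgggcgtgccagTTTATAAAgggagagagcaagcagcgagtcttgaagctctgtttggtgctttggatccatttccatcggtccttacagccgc
The first TXNRD1 window matched the antioxidant core as TGACTTCGC 99 bases before the start and, on the reverse strand, as GCTCCGTCA 8 bases before it. The second window matched it as GCTTTGTCA, on the reverse strand, 102 bases before its start. A match of these letters is common: 13.3% of the 35116 promoter windows of all genes held the core, and 16.1% of genes had it in at least 1 window. The AP-1 letters TGANTCA stood in 7.71% of all windows and in none of the 7 genes. The TATA core stood in 11.5% of all windows and, among the 7, in those of TXN and TXNRD2. Binding of a factor to these windows was not measured here.

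The 9 libraries held 15678443 to 19604367 reads assigned to genes, so that 3 reads correspond to 0.153 to 0.191 CPM, the count of a gene scaled to its library's total after TMM correction. Replicate number was a large source of difference between libraries: 43.3% of the 17806 genes tested differed between the 3 numbers (edgeR quasi-likelihood F-test, adjusted p below 0.05). Markers of the line's own sympathetic identity were high in every library, with 12 markers summing to 3040 to 3936 CPM in vehicle, 2957 to 3792 at 10 µM and 2517 to 3592 at 20 µM. Between 20 µM and vehicle 9 of these 12 were lower in the edgeR fit that carries replicate number as a block, which called 1.36% of all genes as lower, and 0 of the 12 passed without the block. The 10 mesenchymal markers summed to 4577 to 6648 CPM in vehicle and 5113 to 7058 at 20 µM. From vehicle to 20 µM the sum went from 6368 to 6125 CPM in replicate 1, 4577 to 5113 in replicate 2 and 6648 to 7058 in replicate 3. CD44, FOSL1, YAP1 and VIM were higher in the fit with the block, which called 0.848% of all genes as higher. Only 6 of the 10 had a log2 fold change above 0, beside 49.4% of all genes, and the median was 0.04. Without the block 0 of the 10 passed. All 22 of these markers differed by replicate number, and none was at 0. The 6 glial markers summed to at most 9.98 CPM and the 4 leukocyte markers to at most 1.90 CPM in any library, with CD68 at 0 in the vehicle libraries and CD3E at 0 at 20 µM. The 4 epithelial markers summed to at most 48.6 CPM, with CDH1 at 0 at 20 µM. The part of these marker levels in the results below was not tested. In bulk RNA, fewer cells of a kind and less RNA per cell cannot be told apart.

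At 20 µM against vehicle, TXNRD1, TXN, SOD2 and PRDX6 rose, by 1.63-fold, 1.33-fold, 1.16-fold and 1.13-fold. No member fell, and TXNRD2, SRXN1, PRDX1, PRDX3, SOD1 and CAT did not pass the test. These 4 of 10 calls come from the edgeR quasi-likelihood fit that carries replicate number as a block, and that fit called 2.21% of all genes tested, 0.848% as higher and 1.36% as lower. The median log2 fold change of the 10 genes was 0.19, beside 0.00 for all genes. The fit without the block called 0 of all genes and 0 of the 10, and 3 of the 10 had an unadjusted p below 0.05 against 2.17% of all genes. Without the block, DESeq2 called 1 of the 10 (TXNRD1, adjusted p = 0.0443) and limma-voom called 0. The 4 calls were not equally firm over 19 fits with the block, which vary the settings or leave libraries out. TXNRD1 was called in 19, TXN in 18, SOD2 in 13 and PRDX6 in 7, and PRDX1, not called in the main blocked fit, also in 7. The libraries of a number deviated together at every dose, so the values below come from the fit with the block. A fold change is written as log2 ± SE over 9 libraries (3 per dose). The SE was back-calculated as the log2 fold change, without its sign, divided by the square root of the F value of its test.

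**Figure D1:**
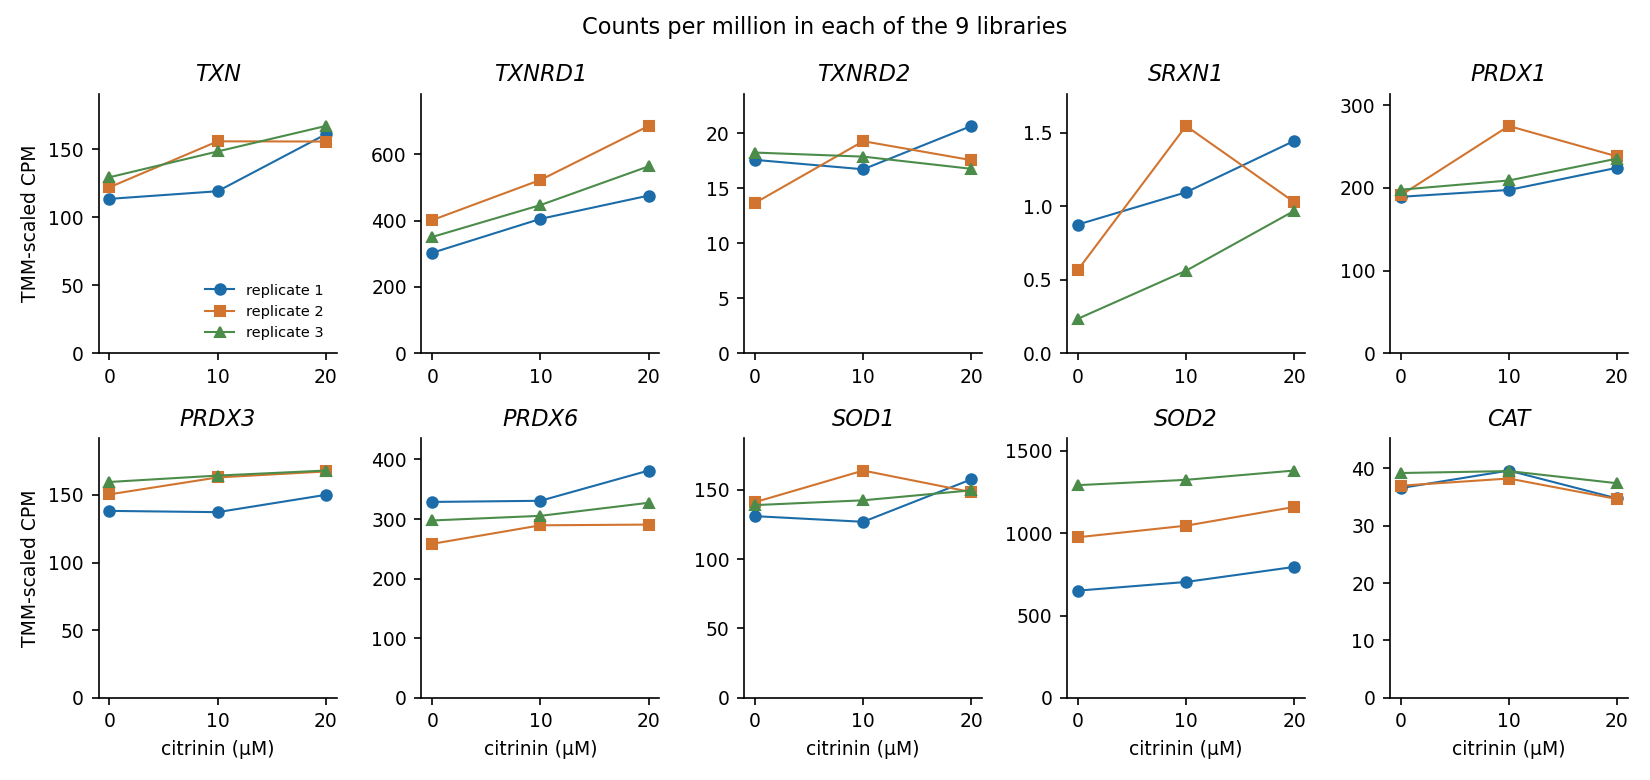
Each panel plots the TMM-scaled CPM of a gene (vertical axis, from 0) against the citrinin dose in µM, with a point for every library and a line joining libraries of the same replicate number. TXNRD1 climbs along all 3 lines, while in SOD2 the lines lie apart at every dose.

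Cytosolic thioredoxin reductase, TXNRD1 (ENSG00000198431, chromosome 12, 104215779 to 104350305 on the plus strand of GRCh38), a selenoprotein, was read at 303, 402 and 351 CPM in vehicle replicates 1, 2 and 3. At 10 µM it was read at 406, 523 and 447 CPM, and at 20 µM at 476, 686 and 564 CPM. Every replicate number had its lowest level in vehicle and its highest at 20 µM, and the 20 µM libraries lay wholly above the vehicle libraries. Group means were 352 ± 49.4, 459 ± 59.6 and 575 ± 105 CPM (SD, n = 3 each). TXNRD1 rose at 20 µM by 0.70 ± 0.05 (adjusted p = 1.44e-10, edgeR), and the 20 µM to vehicle ratio was 1.57, 1.71 and 1.61 in replicates 1, 2 and 3. It was called in all 19 blocked fits tried, which comprise the main blocked fit, 6 other settings and 12 fits that leave out a library or a replicate number.

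Thioredoxin, TXN (ENSG00000136810, chromosome 9, 110243811 to 110256640, minus strand), is the substrate of that reductase. It was read at 113, 122 and 129 CPM in vehicle, at 119, 156 and 148 CPM at 10 µM, and at 161, 156 and 167 CPM at 20 µM. The 20 µM libraries lay above all vehicle libraries, and the 10 µM libraries overlapped both. TXN rose at 20 µM from 121.5 ± 7.94 to 161.1 ± 5.72 CPM (SD, n = 3 each), by 0.41 ± 0.06 (adjusted p = 0.000202, edgeR). This call was lost without the replicate 3 libraries (0.44, adjusted p = 0.0593) and held in the other 18 blocked fits. The 7 annotated TXN pseudogenes averaged 1.33 reads a library between them, and reads that map to several places are not counted, so some TXN reads may be missing from its count.

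Mitochondrial thioredoxin reductase, TXNRD2 (ENSG00000184470, chromosome 22, 19875517 to 19941992, minus strand), had far lower counts. It was read at 17.6, 13.7 and 18.2 CPM in vehicle, 16.7, 19.3 and 17.9 CPM at 10 µM, and 20.7, 17.6 and 16.8 CPM at 20 µM. The 3 doses overlapped, and the difference at 20 µM was 0.15 ± 0.11 (adjusted p = 0.605, edgeR). The difference between the log2 fold changes of TXNRD1 and TXNRD2 was not tested.

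**Figure D2:**
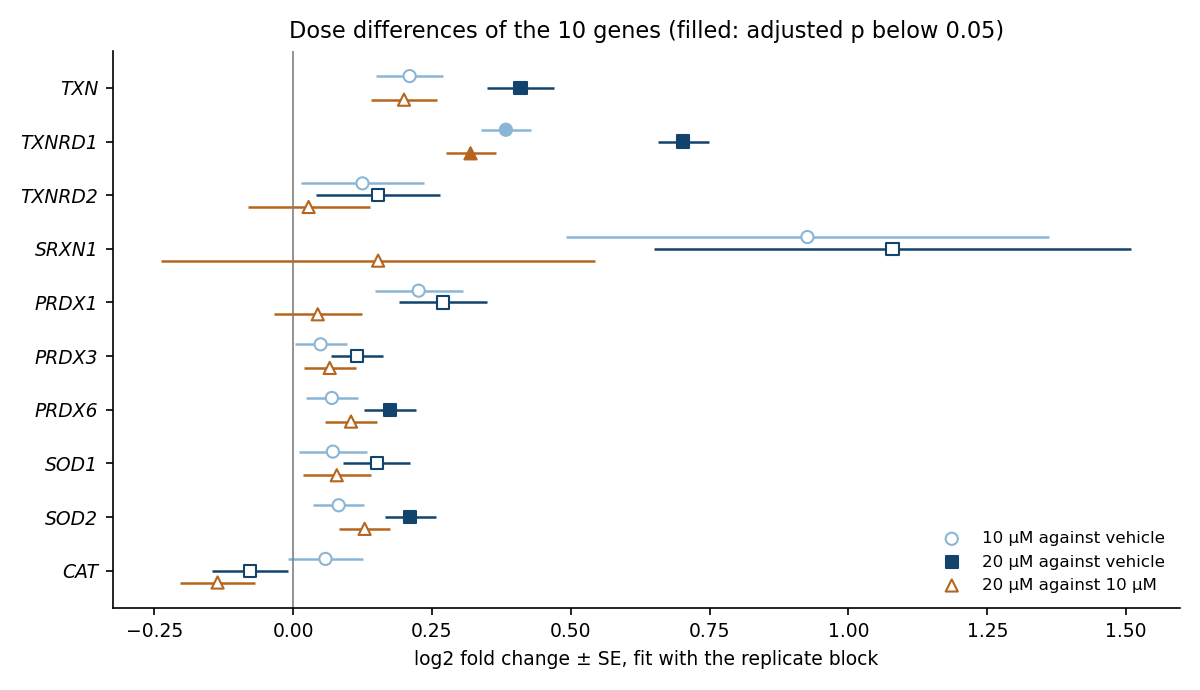
Points give the log2 fold change of each gene (horizontal axis) for 10 µM against vehicle, 20 µM against vehicle and 20 µM against 10 µM from the fit with the replicate block, bars give 1 SE, and filled points have an adjusted p below 0.05. TXNRD1 is filled in all 3 comparisons, and TXN, PRDX6 and SOD2 in the comparison of 20 µM with vehicle.

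SRXN1 (ENSG00000271303, chromosome 20, 646615 to 653370, minus strand), the sulfiredoxin that restores over-oxidised peroxiredoxins, had the highest fitted fold change of the 10 genes and the fewest reads. It held 15, 10 and 4 reads in the vehicle libraries, 19, 24 and 11 at 10 µM, and 24, 18 and 17 at 20 µM, which is 0.235 to 0.876 CPM in vehicle and 0.969 to 1.45 CPM at 20 µM. The 20 µM libraries all lay above the vehicle libraries, but the difference of 1.08 ± 0.43 (2.11-fold) did not pass the test (adjusted p = 0.251, edgeR). Of its 2698 exon bases, 2292 (85.0%) are shared with AL121758.1 on the same strand. The counting leaves reads in that stretch unassigned, and AL121758.1 itself averaged 2.89 reads. The SRXN1 count therefore covers a small part of the transcript.

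PRDX1 (ENSG00000117450, chromosome 1, 45511036 to 45523047, minus strand), the main cytosolic peroxiredoxin, was read at 189, 191 and 198 CPM in vehicle. It was read at 197, 275 and 209 CPM at 10 µM and at 224, 238 and 235 CPM at 20 µM. The 20 µM libraries lay above all vehicle libraries, and the replicate 2 library at 10 µM stood above every other library. Means were 192.6 ± 4.54 in vehicle and 232.5 ± 7.31 CPM at 20 µM (SD, n = 3 each), a difference of 0.27 ± 0.08 that did not pass the test (adjusted p = 0.130, edgeR). PRDX1 shares 379 of its 1522 exon bases (24.9%) with MMACHC on the opposite strand. The 2 strand-wise counts added together return reads lost to that overlap. With nearly equal strand totals they also take in any MMACHC reads there. With these counts PRDX1 passed (0.30, adjusted p = 0.0133, edgeR), and it also passed in limma-voom with the block (adjusted p = 0.0361). The replicate 2 library at 10 µM is in neither group compared, and enters through the filter, the scaling, the shared spread and the adjustment. Without that library PRDX1 passed with 0.27 (adjusted p = 7.46e-06, edgeR), with 18330 genes tested. Without the replicate 1 library at 10 µM it passed too (adjusted p = 0.0357), and likewise without all replicate 2 libraries (adjusted p = 0.00173). In all PRDX1 was called in 7 of 19 blocked fits, 3 of the 12 that leave out a library or a number among them, and in the other 12 the adjusted p reached 0.610, without the 20 µM library of replicate 1.

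PRDX3 (ENSG00000165672, chromosome 10, 119167703 to 119178833, minus strand), a mitochondrial peroxiredoxin, was read at 138, 150 and 160 CPM in vehicle and at 150, 167 and 168 CPM at 20 µM. The doses overlapped, and the difference was 0.12 ± 0.05 (adjusted p = 0.261, edgeR), with the 20 µM library higher in 3 of 3 pairs. PRDX6 (ENSG00000117592, chromosome 1, 173477266 to 173488807, plus strand) was read at 329, 258 and 298 CPM in vehicle, 331, 290 and 305 CPM at 10 µM, and 381, 291 and 327 CPM at 20 µM. The doses overlapped across numbers, with replicate 1 highest at every dose. Within the numbers the 20 µM to vehicle ratio was 1.16, 1.12 and 1.10. PRDX6 rose by 0.17 ± 0.05 with an adjusted p of 0.0444 (edgeR), close to the threshold, and did not pass in DESeq2 with the block (adjusted p = 0.0604) or with the strand columns added (adjusted p = 0.0531). Of the 12 fits that leave out a library or a number it was called in 2, those without the 10 µM library of replicate 1 (adjusted p = 0.0243) or replicate 2 (adjusted p = 0.00552). In the other 10 the adjusted p ran from 0.0546, without the 20 µM library of replicate 2, to 0.505, without all replicate 3 libraries. In all PRDX6 was called in 7 of 19 blocked fits, as many as PRDX1.

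SOD1 (ENSG00000142168, chromosome 21, 31659622 to 31668931, plus strand), the cytosolic copper and zinc enzyme, was read at 131, 141 and 139 CPM in vehicle, 127, 164 and 142 CPM at 10 µM, and 158, 148 and 150 CPM at 20 µM. Its 20 µM libraries lay above all vehicle libraries, with a difference of 0.15 ± 0.06 that did not pass the test (adjusted p = 0.265, edgeR). SOD2 (ENSG00000112096, chromosome 6, 159669057 to 159745186, minus strand), the manganese enzyme of mitochondria, was read at 651, 975 and 1292 CPM in vehicle. It was read at 704, 1046 and 1324 CPM at 10 µM and at 795, 1160 and 1381 CPM at 20 µM. The doses overlapped widely and the numbers lay far apart, but within each number the level was lowest in vehicle and highest at 20 µM. SOD2 rose by 0.21 ± 0.05 (adjusted p = 0.0106, edgeR), with ratios of 1.22, 1.19 and 1.07 in replicates 1, 2 and 3.

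The SOD2 call held in 6 of the 12 fits that leave out a library or a number. It was lost without vehicle replicate 1 (adjusted p = 0.202), vehicle replicate 2 (0.220), the 10 µM library of replicate 3 (0.0509), the 20 µM library of replicate 2 (0.0616), all replicate 1 libraries (0.0691) or all replicate 3 libraries (0.201). Without the block the SOD2 difference was 0.19 ± 0.31, and it turned to -0.03 without vehicle replicate 1.

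CAT (ENSG00000121691, chromosome 11, 34438925 to 34472062, plus strand), catalase, was read at 36.6, 37.0 and 39.2 CPM in vehicle, 39.6, 38.2 and 39.5 CPM at 10 µM, and 34.8, 34.7 and 37.4 CPM at 20 µM. It was the only member whose level at 20 µM was below vehicle in 3 of 3 pairs and below every 10 µM library. The difference from vehicle was -0.08 ± 0.07 (adjusted p = 0.691, edgeR) and that from 10 µM was -0.14 ± 0.07 (adjusted p = 0.575, edgeR). Libraries without overlap were counted for all genes too: 5 of the 10 members (TXN, TXNRD1, SRXN1, PRDX1 and SOD1) had all 20 µM libraries above all vehicle libraries, against 3.4% of all genes, and 0 had them all below, against 3.35%. Members higher in 3 of 3 pairs were 8 of 10, against 17.4% of all genes.

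At 10 µM against vehicle, TXNRD1 rose by 1.30-fold and the other 9 genes did not pass the test. The blocked fit called 0.0337% of all genes, each of them higher, and 1 of the 10 members. The TXNRD1 difference was 0.38 ± 0.05 (adjusted p = 6.26e-05, edgeR), with ratios of 1.34, 1.30 and 1.27 in replicates 1, 2 and 3, and it was the 1 member whose 10 µM libraries all lay above the vehicle libraries, as did those of 2.06% of all genes. None of the 10 had its 10 µM libraries wholly below vehicle, the case for 1.95% of all genes, and 7 were higher in 3 of 3 pairs against 11.9% of all genes. The call was lost without the replicate 3 libraries, where the difference was 0.41 (adjusted p = 0.486). TXN differed by 0.21 ± 0.06 (adjusted p = 0.841, edgeR) and passed without the 10 µM library of replicate 1 (0.30, adjusted p = 0.0317). PRDX1 differed by 0.23 ± 0.08 and passed with no filter on low counts (adjusted p = 0.0113). The SRXN1 value of 0.93 ± 0.43 rests on the low reads given above. All 10 fitted differences were above 0, as were those of 49.1% of all genes. The fit without the block called 0 of all genes, and 1 of the 10 members and 0.646% of all genes had an unadjusted p below 0.05. DESeq2 and limma-voom without the block called 0 members.

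At 20 µM against 10 µM, TXNRD1 rose by a further 1.25-fold, and again no other member passed. The blocked fit called 0.444% of all genes, 0.18% as higher and 0.264% as lower. The TXNRD1 difference was 0.32 ± 0.05 (adjusted p = 0.000338, edgeR), and its call was lost without the 10 µM library of replicate 3 (0.31, adjusted p = 0.0620) or all replicate 3 libraries (adjusted p = 0.477). TXN differed by 0.20 ± 0.06 (adjusted p = 0.185, edgeR) and passed without the 10 µM library of replicate 2 (0.29, adjusted p = 0.00159) or all replicate 2 libraries (0.30, adjusted p = 0.000803), and with no filter on low counts (adjusted p = 0.0287). PRDX1 differed by 0.04 ± 0.08 (adjusted p = 0.945, edgeR) and passed without the 10 µM library of replicate 2 (0.19, adjusted p = 0.0376). CAT was the 1 member with its 20 µM libraries wholly below those at 10 µM, as were 2.5% of all genes, and 0 members lay wholly above, as did 2.37% of all genes. Members higher in 3 of 3 pairs were 4, against 13.6% of all genes. The fit without the block called 0 of all genes, with an unadjusted p below 0.05 for 0 members and 1.18% of all genes. The comparisons share libraries: the vehicle group enters the first 2, and each citrinin group enters 2.

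Replicate number accounted for more of the spread than dose in PRDX3, PRDX6 and SOD2. Across the 9 libraries, 94.0% of the SOD2 sum of squares of log2(CPM + 0.5) lay between replicate numbers and 5.16% between doses. The SOD2 means were 717, 1060 and 1332 CPM in replicates 1, 2 and 3, with no overlap between numbers (F-test adjusted p = 5.00e-14, edgeR). All 12 sympathetic and all 10 mesenchymal markers differed by replicate number as well. In vehicle replicates 1, 2 and 3 the sympathetic markers summed to 3936, 3498 and 3040 CPM. The mesenchymal markers summed to 6368, 4577 and 6648 CPM in the same libraries. The part of either list in the SOD2 difference was not tested. PRDX3 had 74.6% and PRDX6 71.3% of its spread between numbers. PRDX6 was lowest in replicate 2 and highest in replicate 1, whereas PRDX3 was lowest in replicate 1. For TXNRD1 dose held 71.8% and number 27.4%, which left 0.76%, and for TXN dose held 69.8%. TXNRD2 had 68.2% and SOD1 48.0% in neither. TXN, TXNRD1, PRDX3, PRDX6 and SOD2, 5 of the 10, passed the test for replicate number that 43.3% of all genes passed.

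**Figure D3:**
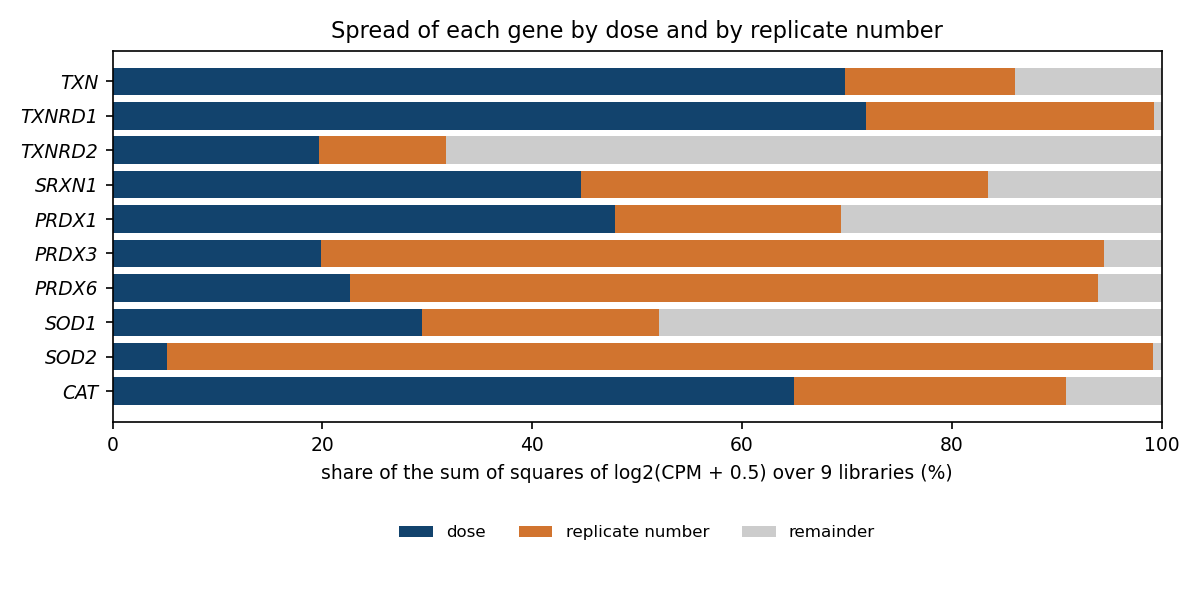
Bars split the sum of squares of log2(CPM + 0.5) of each gene over the 9 libraries into percent shares for dose, replicate number and the remainder, which add to 100. Dose holds 71.8% in TXNRD1 and 5.16% in SOD2.

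Levels of different genes are set side by side as CPM per kilobase of exon that no other gene shares, a scale on which PRDX1 was highest in vehicle and SRXN1 lowest. PRDX1 stood at 168 CPM per kb (range 165 to 173), PRDX6 at 125 (109 to 139), TXN at 106 (99.3 to 113) and SOD1 at 67.9 (64.9 to 69.9). SOD2 followed at 60.1 CPM per kb (40.2 to 79.8), TXNRD1 at 52.5 (45.2 to 59.9) and PRDX3 at 43.7 (40.4 to 46.7). CAT stood at 10.5 CPM per kb (10.2 to 10.9), TXNRD2 at 2.02 (1.67 to 2.23) and SRXN1 at 1.38 (0.578 to 2.16). Neighbours whose ranges overlap were PRDX6 and TXN, SOD1 and SOD2, SOD2 and TXNRD1, TXNRD1 and PRDX3, and TXNRD2 and SRXN1. At 20 µM TXNRD1 stood at 85.8 CPM per kb (70.9 to 102), a range that overlaps those of SOD1 (73.5 to 78.0) and SOD2 (49.1 to 85.3). The merged exons used here are longer than any single transcript, so these levels understate genes with many alternative exons.

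**Figure D4:**
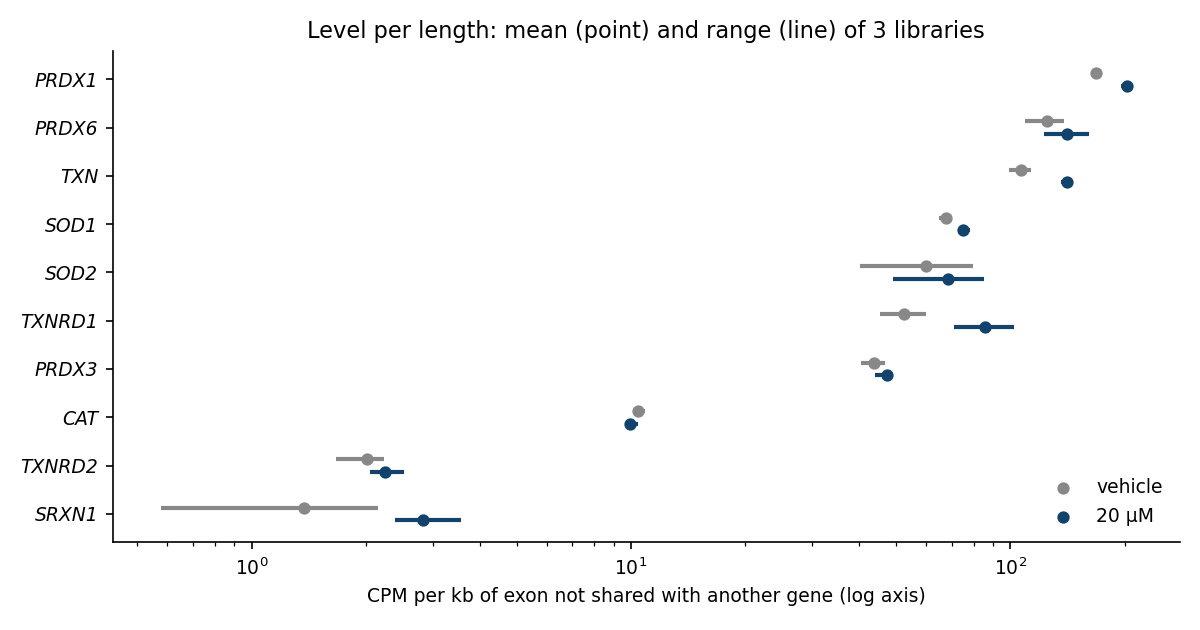
Points give the mean and lines the range of 3 libraries, in CPM per kb of unshared exon on a log axis, for vehicle and 20 µM. The genes span from 1.38 (SRXN1) to 168 (PRDX1) in vehicle.

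Of 30 related genes, TXNIP fell at 20 µM and no other passed the test. The list holds thioredoxin-fold proteins and peroxide enzymes, and also genes that are neither, such as TXNIP and CCS. TXNIP is the arrestin-like protein that binds and inhibits thioredoxin. It was read at 257, 271 and 273 CPM in vehicle, 257, 248 and 271 CPM at 10 µM, and 231, 214 and 218 CPM at 20 µM, and its 20 µM libraries lay below all others. TXNIP fell by 0.27 ± 0.05 on the log2 scale against vehicle (adjusted p = 0.000983, edgeR) and by 0.23 ± 0.05 against 10 µM (adjusted p = 0.0210, edgeR). The 20 µM to vehicle call on the list, 1 of 30, went to 0 without vehicle replicate 2, without the 20 µM library of replicate 3 or without all replicate 3 libraries. The call between the doses, also 1 of 30, went to 0 without vehicle replicate 3, the 10 µM library of replicate 3, the 20 µM library of replicate 2 or 3, or all replicate 3 libraries. The median over the 30 was 0.10 beside 0.00 for all genes, with 24 of 30 fitted above 0 beside 49.4% of all genes. The 1 call in 30 stands beside 2.21% of all genes called, and 1.36% called as lower.

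The closest relatives of the members did not pass at 20 µM. TXN2, the mitochondrial thioredoxin, differed by 0.05 ± 0.06 (adjusted p = 0.819, edgeR). PRDX2, a second cytosolic peroxiredoxin, differed by 0.07 ± 0.06 (0.683), PRDX4 of the endoplasmic reticulum by 0.17 ± 0.09 (0.409), and PRDX5 by 0.07 ± 0.06 (0.701). CCS, the copper chaperone that loads SOD1, differed by -0.04 ± 0.10 (0.913). GLRX2, a mitochondrial glutaredoxin, had the highest fitted value of the list at 0.30 ± 0.10, and its adjusted p was 0.146. Replicate number separated 15 of the 30, beside 43.3% of all genes, and SOD3, the extracellular dismutase, averaged 6.0, 43.9 and 46.3 CPM in replicates 1, 2 and 3.

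**Figure D5:**
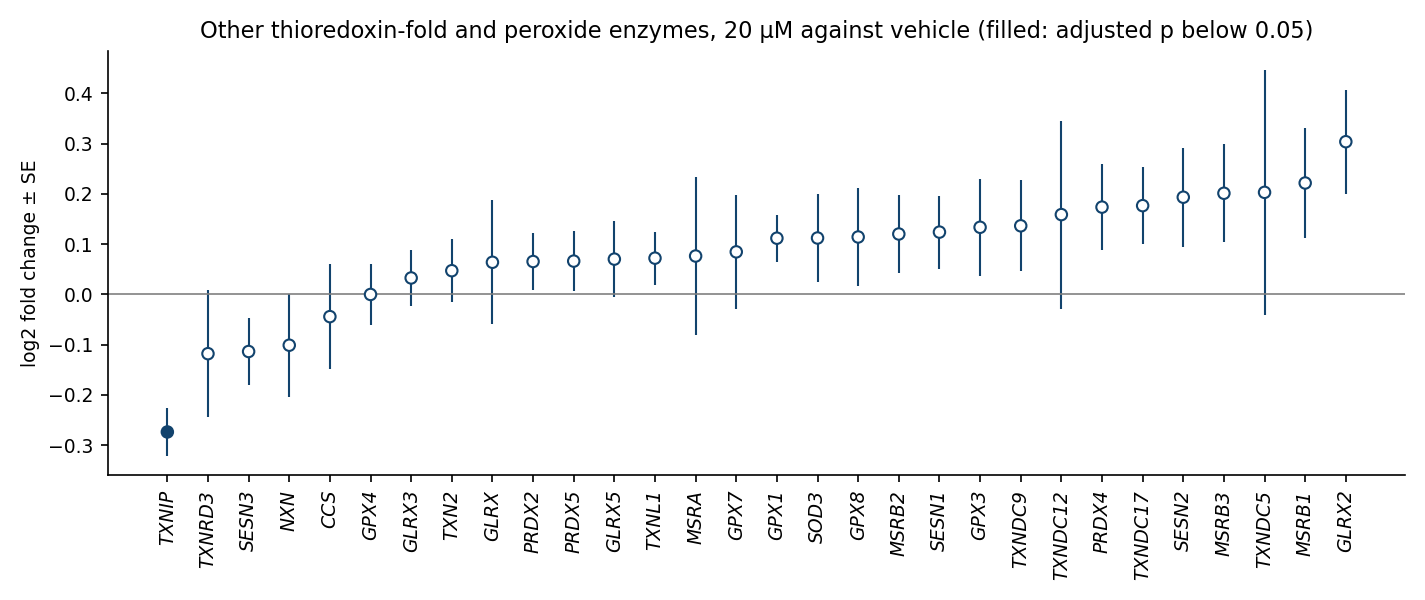
Points give the log2 fold change at 20 µM against vehicle (vertical axis) of the 30 related genes from the fit with the replicate block. Bars give 1 SE, and the filled point has an adjusted p below 0.05. Not all 30 are thioredoxin-fold or peroxide enzymes. TXNIP is the filled point, at -0.27.

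No gene for selenocysteine synthesis or for peroxide production passed the test. Of 7 genes for selenocysteine synthesis, which TXNRD1 and TXNRD2 need for their active site, 0 passed at any comparison with the block, and the median at 20 µM was -0.04. Without the block edgeR also called 0, and 0 had an unadjusted p below 0.05. Of 16 producers of superoxide or hydrogen peroxide 13 were tested and 0 passed, with a median of 0.03. The blocked fit called 2.21% of all genes at 20 µM against vehicle, 0.0337% at 10 µM and 0.444% between the doses. At those shares, 0 calls in lists this short do not set their genes apart from other genes. Of 13 regulators 12 were tested, and FOXO3, a transcription factor with SOD2 and CAT among its known targets, fell by 0.21 ± 0.05 on the log2 scale at 20 µM (adjusted p = 0.0186, edgeR). This was 1 call in 12, beside 2.21% of all genes called and 1.36% called as lower. Without the block 0 of the 12 passed. FOXO3 was read at 141, 169 and 140 CPM in vehicle and at 119, 149 and 120 CPM at 20 µM, so the doses overlapped while each number had its lower level at 20 µM. NFE2L2, the gene of NRF2, differed by 0.13 ± 0.06 (adjusted p = 0.301, edgeR), and KEAP1, which holds NRF2 in check, by 0.18 ± 0.07 (adjusted p = 0.259, edgeR). As reference points on the same scale, the NRF2 targets NQO1 and GCLM rose at 20 µM by 0.98 ± 0.06 and 0.93 ± 0.07, both above the value of TXNRD1.

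The genes whose levels most resembled those of each member were ranked by Pearson's r of log2 CPM over the 9 libraries after the mean of each replicate number was subtracted, among 12294 genes. For TXNRD1 these were EXOC3 (r = 0.99), ASPH and SEL1L3, and for TXN they were TRIM16, IL15RA and EIF2B1. PRDX1 was closest to POLE4, NECTIN2 and STYXL1, PRDX3 to CLU, THNSL1 and SYDE1, and PRDX6 to ACTA2, VCP and HSD17B10. SOD1 was closest to PARK7, NME3 and GLRX2, and SOD2 to FBXO9, ATG5 and GNAI2. CAT was closest to SASS6, CAMSAP3 and ARPIN, TXNRD2 to PBXIP1, SIX4 and ZDHHC3, and SRXN1 to NDUFB5, TRMT2A and EXOSC5. Members were left out of the ranking, yet TXN and PRDX6 correlated with each other at 0.9862. That is above TRIM16 (0.9834), the highest named for TXN, and above HSD17B10 (0.9856) for PRDX6. The 30 ranked values ran from 0.970 to 0.994. They are a description: the libraries share depth and replicate, and so many genes over 9 libraries give high values.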

How the data were processed

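The authors deposited raw read counts per gene from STAR for each library, with GRCh38 as the build. FastQC, cutadapt, STAR and edgeR are named in the submitters' processing notes; their versions and the gene models counted were not given in the sources used here. Only the unstranded count column was used for the main tests, since both strand columns held nearly equal totals. Of all reads 76.4% to 78.0% were assigned to genes, and the rows that name no gene were left out: unmapped (2.86% to 3.62%), multimapping (2.22% to 2.61%), no feature (6.75% to 7.98%) and ambiguous (9.51% to 10.1%). Positions and exon lengths come from GENCODE 29 on GRCh38, and promoters from RefSeq.

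Counts were filtered with filterByExpr, scaled by TMM (factors 0.989 to 1.013) and tested with edgeR 4.0.16 in R 4.3.3 by robust quasi-likelihood tests over all 9 libraries, with Benjamini-Hochberg adjustment over 17806 genes and a threshold of 0.05. DESeq2 1.42.0 and limma 3.58.1 were alternatives, with RLE scaling, no filter, 2 groups only, added strand columns and libraries left out. The planned fit had no block. Same-numbered libraries correlated in their deviations from group means at 0.457 to 0.685 in all 9 pairs (limit 0.1), different numbers at -0.545 to 0.139, so the blocked values stand in the text. The biological coefficient of variation was 0.195 without and 0.0552 with the block. No 2 libraries of the same dose agreed within sampling noise. Scripts were tested on simulated data. The 10 genes and the lists were chosen with earlier results of these data known. All 10 are named, with 6 fixed relatives, NQO1, GCLM, up to 4 called genes per list and the 3 most similar genes outside the members. GLRX2, SOD3, MMACHC, AL121758.1, NFE2L2, KEAP1 and 4 mesenchymal markers were named after their values were seen.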

Additional observations from a re-analysis of the deposited data

How the results depend on the processing

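Without the block, 20 µM against vehicle gave 0 genes, 6 with no filter on low counts and 11 in DESeq2, and 1 member in DESeq2. With the replicate block it gave 393 genes and 4 members, with RLE 399 and 4, with no filter 560 and 5, and with DESeq2 267 and 3. Also with the block, limma-voom gave 330 and 5, 2 groups only 644 and 5, and strand columns added 407 and 4. The list of 30 related genes had 1 in each. For 10 µM against vehicle the same 7 blocked settings gave 6, 6, 23, 6, 4, 12 and 7 genes and 1, 1, 2, 1, 1, 1 and 1 members. For 20 µM against 10 µM they gave 79, 79, 188, 62, 68, 30 and 89 genes and 1, 1, 2, 1, 1, 1 and 1 members. They gave 1 of the 30 related genes in every setting but 2 groups only (0). Leaving out a library or a number moved the blocked counts between 48 and 729 genes, 1 and 5 members and 0 and 1 related genes at 20 µM against vehicle. The ranges were 0 to 16 genes and 0 to 2 members at 10 µM, and 0 to 301 genes, 0 to 3 members and 0 to 2 related genes between the doses. Without the block they were 0 to 1 genes and 0 members. Over both kinds of fit, the leave-out log2 fold changes that changed sign were, at 20 µM against vehicle, SOD2 (-0.030 to 0.45). At 10 µM they were TXNRD2 (-0.047 to 0.24), PRDX3 (-0.0018 to 0.13), PRDX6 (-0.022 to 0.15), SOD1 (-0.026 to 0.16) and SOD2 (-0.15 to 0.33). Between the doses they were TXNRD2 (-0.11 to 0.16), SRXN1 (-0.20 to 0.57), PRDX1 (-0.057 to 0.19), PRDX3 (-0.017 to 0.11), SOD1 (-0.037 to 0.19) and SOD2 (-0.093 to 0.35). The cause was not tested. TXN, TXNRD1 and CAT kept their sign in every fit run. Depth limits SRXN1 most, at 4 to 24 reads a library.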
